A study of Mus musculus with 18 samples.

Results

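Amino acid transporters were followed in RNA-seq of mouse peritoneal macrophages as the protein coding genes of the solute carrier families *Slc1*, *Slc3*, *Slc6*, *Slc7*, *Slc36*, *Slc38* and *Slc43*, chosen by symbol alone. The rule took 64 of the 55573 genes counted. Of these, 31 had enough counts to be tested among 13443 genes. The other 33 comprised 17 with no count in any library and 16 that never exceeded 1.55 CPM (counts scaled to library size with TMM factors). *Slc7a6os* was taken by its symbol, lies downstream of *Slc7a6* on the other strand without overlapping it, and encodes no carrier.

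The libraries came from 6 groups of 3, sorted on CD11b and F4/80 from the peritoneal lavage of C57BL/6 mice, each library a pool of 2 to 3 mice. *Zeb1*∆M macrophages came from *Zeb1*f/f mice that also carried LysM Cre, which is driven by the lysozyme gene of myeloid cells and can act in neutrophils and monocytes as well as in macrophages. *Zeb1*WT macrophages came from *Zeb1*f/f mice without Cre. Each genotype was studied after LPS + LPS (2 doses), Metformin + LPS (Metformin before 1 dose) and LPS (1 dose). LPS, a bacterial cell wall component, was given in every group, so no untreated macrophages enter any comparison, and Cre without floxed alleles was not among the groups.

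Amino acid carriers work in a few modes. Light chains of the *Slc7* family pair with the heavy chain encoded by *Slc3a2* and exchange one amino acid for another across the plasma membrane. Some *Slc1* and *Slc38* carriers use the sodium gradient to load cells with glutamine and other neutral amino acids, which then serve as exchange substrates. In macrophages, arginine taken up by cationic carriers feeds nitric oxide synthase and arginase, and amino acids held in the lysosome and cytosol are sensed by mTORC1.

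The libraries held 14053706 to 30570439 counts. TMM factors were 1.42 to 1.56 in LPS + LPS libraries and 0.867 to 1.06 in LPS libraries. After Metformin + LPS they were 0.843 to 0.879 in *Zeb1*∆M and 0.445 to 0.708 in *Zeb1*WT libraries. All CPM given here rest on these factors, and the ranges of groups without them were not compared. *Adgre1*, which encodes F4/80, had group means of 1769 to 3718 CPM, and *Cd3e* of T cells was at most 0.179 CPM in any library. *Zeb1* was lower in *Zeb1*∆M than in *Zeb1*WT macrophages without overlap after Metformin + LPS (3.92 to 4.79 against 12.3 to 12.9 CPM) and after LPS (1.38 to 3.01 against 6.41 to 7.21 CPM). After LPS + LPS its ranges were 0.738 to 0.926 CPM in *Zeb1*∆M and 0.912 to 2.52 CPM in *Zeb1*WT macrophages, so they overlapped there. Replicate 1 of *Zeb1*WT LPS + LPS stood apart: over 9047 genes its rank correlation was 0.974 with a *Zeb1*∆M LPS + LPS library and 0.917 to 0.930 with its own group. Some results that use it are also given without it. It was also omitted in turn in the fits that left out 1 library. The Metformin + LPS libraries bear another series of library codes and held 1.19 to 2.79% mitochondrial transcripts, against 0.513 to 1.12% in the other libraries, so Metformin and library series cannot be told apart in comparisons with LPS.

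Per kilobase of exon, the most highly expressed members were *Slc7a2*, the inducible cationic carrier that brings arginine into macrophages, and *Slc3a2*, the shared heavy chain. After LPS + LPS, *Slc7a2* averaged 195 ± 36.2 CPM per kb in *Zeb1*∆M and 89.6 ± 16.3 in *Zeb1*WT macrophages (SD, n = 3 each). *Slc3a2* averaged 96.8 ± 14.9 and 94.8 ± 19.03 CPM per kb in the same groups. *Zeb1*WT LPS + LPS was thus the one group in which *Slc7a2* did not stand first, and there the ranges of both genes overlapped. In all 6 groups *Slc7a7*, *Slc7a8* and *Slc6a6* took places 3 to 5, with means of 17.3 to 40.9 CPM per kb. Their order changed between groups. Reads of *Slc7a2* made up 54.8 to 62.4% of all reads of the members in *Zeb1*∆M macrophages after LPS + LPS, 37.95 to 45.4% in *Zeb1*WT macrophages after LPS + LPS and 60.7 to 73.3% in the other groups.

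**Figure D1:**
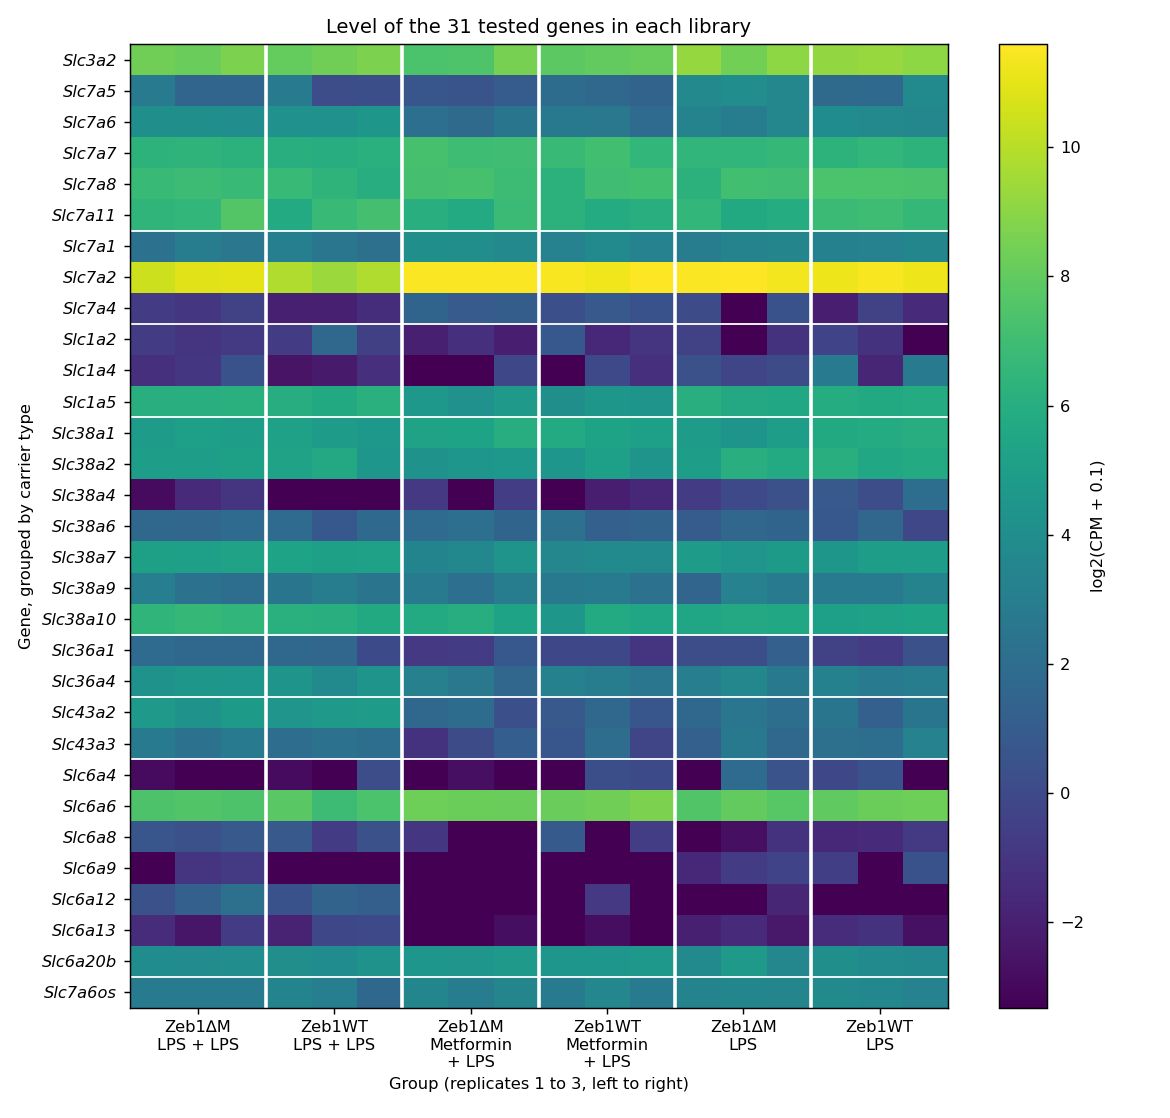
Level of the 31 tested genes in each of the 18 libraries, as log2(CPM + 0.1), with genes ordered by carrier type and 3 replicates per group. *Slc7a2* is the brightest row in every library, and most *Slc6* members are near the bottom of the scale.

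Between 0.677 and 5.87% of all genes were called between genotypes and 25.2 to 36.6% between treatments, and the counts of members below stand beside these shares. Tests are edgeR quasi-likelihood tests, called at a Benjamini-Hochberg adjusted p under 0.05 over all 13443 genes, and differences are log2 fold changes ± SE. Whether the 3 pools of a group were processed on separate days is not given in the sources used here.

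Between genotypes, *Slc7a2* was the only member called after LPS + LPS. It had 1399, 1931 and 2005 CPM in *Zeb1*∆M LPS + LPS libraries, against 914, 647 and 894 CPM in *Zeb1*WT LPS + LPS libraries. Every *Zeb1*∆M library lay above every *Zeb1*WT library. The difference was 1.12 ± 0.20 (adjusted p = 0.0102). It passed in 3 of the 6 fits that left out 1 library and not without *Zeb1*∆M replicate 2 or 3 or *Zeb1*WT replicate 2 (adjusted p 0.00827 to 0.0669 over the 6). Without *Zeb1*WT replicate 1 it was 1.21 ± 0.23 (adjusted p = 0.0094). With only the groups compared in the fit *Slc7a2* was not called, at 1.13 ± 0.22 (adjusted p = 0.168), and neither was any of the 12390 genes tested there. After Metformin + LPS, the gene had 2928, 2870.0 and 2889 CPM in *Zeb1*∆M and 2751, 2517 and 3103 CPM in *Zeb1*WT libraries. After LPS, the values were 2867, 3034 and 2577 CPM in *Zeb1*∆M and 2369.6, 2793 and 2406 CPM in *Zeb1*WT libraries. The genotypes overlapped after both of these treatments.

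Beside *Slc7a2*, markers of large peritoneal macrophages also differed between genotypes after LPS + LPS. The summed level of the 11 markers was 2724 to 3851 CPM in *Zeb1*∆M and 1113 to 1183 CPM in *Zeb1*WT libraries, 5 of the 11 were called higher in *Zeb1*∆M macrophages, and none was at 0. In bulk samples, fewer cells of a type and less RNA per cell cannot be told apart, and the part of this shift in the *Slc7a2* result was not tested. Over all genes, 0.677% were called in this comparison, 0.461% higher and 0.216% lower, against 1 and 0 of the 31 members. Without *Zeb1*WT replicate 1 the share of all genes called was 2.85%, and *Slc7a2* was again the 1 member called. DESeq2 called 2.84% of all genes and 2 members, *Slc7a2* and the scarce *Slc38a4*. Groups did not overlap for 6 of the 31 members, against 17.9% of all genes. The median log2 fold change of the members was 0.19, against -0.02 over all genes tested.

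*Slc38a1*, a sodium-coupled carrier that accumulates glutamine, was the only member called between genotypes after LPS. It had 29.6, 21.1 and 32.9 CPM in *Zeb1*∆M LPS libraries, against 53.7, 57.9 and 61.6 CPM in *Zeb1*WT LPS libraries. The *Zeb1*∆M libraries were all lower, with no overlap. The difference was -1.05 ± 0.23 (adjusted p = 0.025), and it passed in 1 of the 6 fits that left out 1 library (adjusted p 0.0469 to 0.116). After LPS + LPS, *Slc38a1* had 29.02, 33.6 and 32.01 CPM in *Zeb1*∆M and 36.8, 30.7 and 24.5 CPM in *Zeb1*WT libraries. After Metformin + LPS, it had 39.3, 40.1 and 62.5 CPM in *Zeb1*∆M and 55.6, 40.96 and 34.7 CPM in *Zeb1*WT libraries. Genotypes overlapped in both.

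In the LPS comparison 1.15% of all genes were called, 0.208% higher and 0.937% lower in *Zeb1*∆M macrophages, against 0 and 1 of the 31 members. Markers of other cells moved the same way as *Slc38a1*. The summed level of 9 B cell markers was 35.4 to 55.0 CPM in *Zeb1*∆M LPS and 168 to 256 CPM in *Zeb1*WT LPS libraries, with 3 of 9 called lower. The sum of 14 neutrophil markers was 647 to 761 CPM in *Zeb1*∆M LPS and 799 to 1118 CPM in *Zeb1*WT LPS libraries, with 4 of 14 called lower and none at 0 in either list. Their part in the *Slc38a1* result was not tested. The members' median log2 fold change was -0.14, against 0.01 over all genes, and 5 of the 31 members had no overlap between genotypes, against 20.9% of all genes.

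After Metformin + LPS no member was called between genotypes, by edgeR or by DESeq2. With edgeR 2 of 31 members and 2779 of 13443 genes reached an unadjusted p under 0.05. Over all genes edgeR called 5.87%, 1.26% higher and 4.61% lower, and DESeq2 10.2%. Groups did not overlap for 2 of the 31 members, against 24.4% of all genes. The summed level of 9 markers of monocytes and small peritoneal macrophages was 1924 to 3318 CPM in *Zeb1*∆M and 4853 to 18417.5 CPM in *Zeb1*WT libraries, with 7 of 9 called lower and none at 0. The members' median log2 fold change was 0.02, against 0.03 over all genes.

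**Figure D2:**
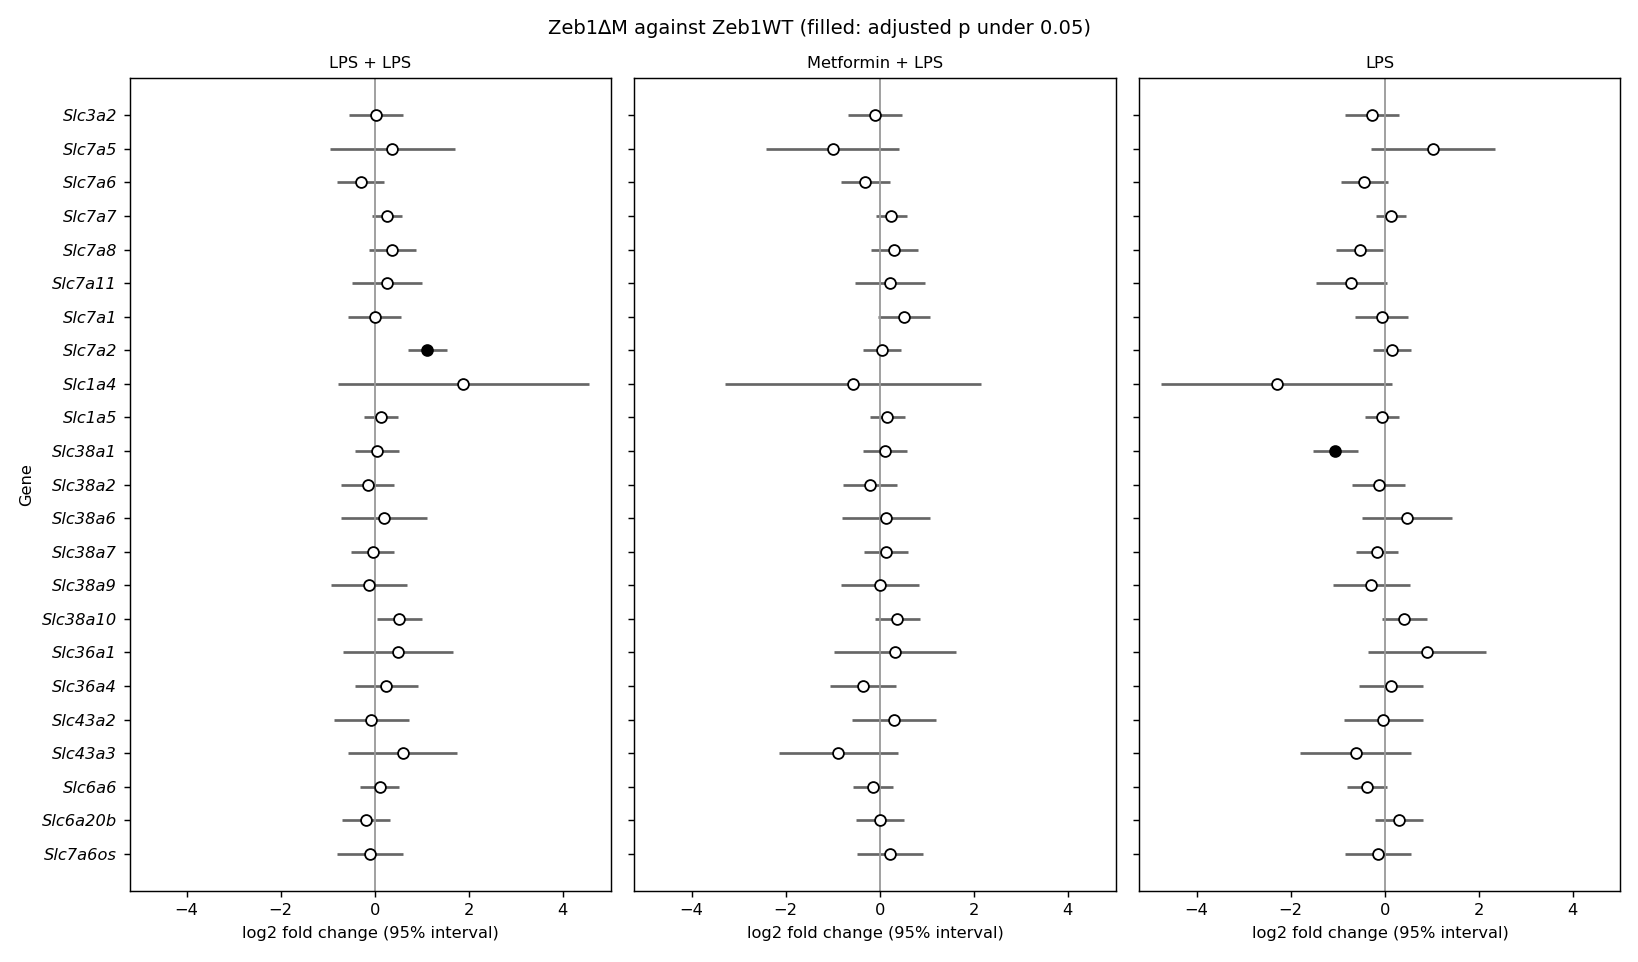
Log2 fold change of *Zeb1*∆M over *Zeb1*WT macrophages with its 95% interval for the 23 members that reached 3 CPM in a group, one panel per treatment, filled where the adjusted p was under 0.05. *Slc7a2* is filled after LPS + LPS and *Slc38a1* after LPS, and no point is filled after Metformin + LPS.

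The light chain gene *Slc7a8*, which the study followed as a carrier of glutamine and branched-chain amino acids, lies on GRCm38 chromosome 14 from 54722209 to 54781946 on the minus strand. The promoter window of RefSeq, from 250 bases before to 50 bases after the transcript start, is shown for it because its level is the one the study set against the treatments. It covers chr14:54781837-54782136 on the minus strand and holds none of the motifs searched among the members.

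Slc7a8: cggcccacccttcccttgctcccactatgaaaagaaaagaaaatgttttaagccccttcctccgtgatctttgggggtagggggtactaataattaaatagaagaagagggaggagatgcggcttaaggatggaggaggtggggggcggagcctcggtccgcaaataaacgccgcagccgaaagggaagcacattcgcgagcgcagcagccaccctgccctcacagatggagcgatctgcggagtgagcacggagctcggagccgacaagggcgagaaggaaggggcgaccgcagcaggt

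In *Zeb1*∆M libraries, *Slc7a8* had 108, 119 and 110.4 CPM after LPS + LPS, 145, 156 and 119.9 CPM after Metformin + LPS and 78.3, 134 and 128 CPM after LPS. In *Zeb1*WT libraries, it had 113, 83.7 and 63.9 CPM after LPS + LPS, 76.1, 130.2 and 133 CPM after Metformin + LPS and 165, 168 and 159 CPM after LPS. In CPM scaled with TMM factors, the *Zeb1*WT LPS libraries were the highest of all 18 and lay close together. Those of LPS + LPS and Metformin + LPS were all below them. In *Zeb1*∆M macrophages the LPS + LPS libraries fell within the range of the LPS libraries, where replicate 1 was far below the others.

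Relative to LPS, *Slc7a8* after LPS + LPS differed by -0.01 ± 0.24 (adjusted p = 0.975) in *Zeb1*∆M macrophages, with a 95% interval of -0.51 to 0.49. In *Zeb1*WT macrophages it fell by 0.92 ± 0.24 on the log2 scale (adjusted p = 0.00584), and the fall passed in each of the 6 fits that left out 1 library. Without replicate 1 of *Zeb1*WT LPS + LPS the value was -1.15 ± 0.26 (adjusted p = 0.00199). The test of the difference between genotypes gave 0.90 ± 0.34 (adjusted p = 0.546), so a different response of the genotypes was not called. After Metformin + LPS, *Slc7a8* differed from LPS by 0.31 ± 0.24 (adjusted p = 0.364) in *Zeb1*∆M and by -0.53 ± 0.24 (adjusted p = 0.112) in *Zeb1*WT macrophages, with 0.84 ± 0.34 (adjusted p = 0.292) for the interaction. None of these Metformin values passed. Between genotypes, *Slc7a8* differed by -0.53 ± 0.24 (adjusted p = 0.336) after LPS, where the libraries did not overlap, by 0.37 ± 0.24 (adjusted p = 0.597) after LPS + LPS and by 0.31 ± 0.24 (adjusted p = 0.506) after Metformin + LPS. None of these passed either.

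**Figure D3:**
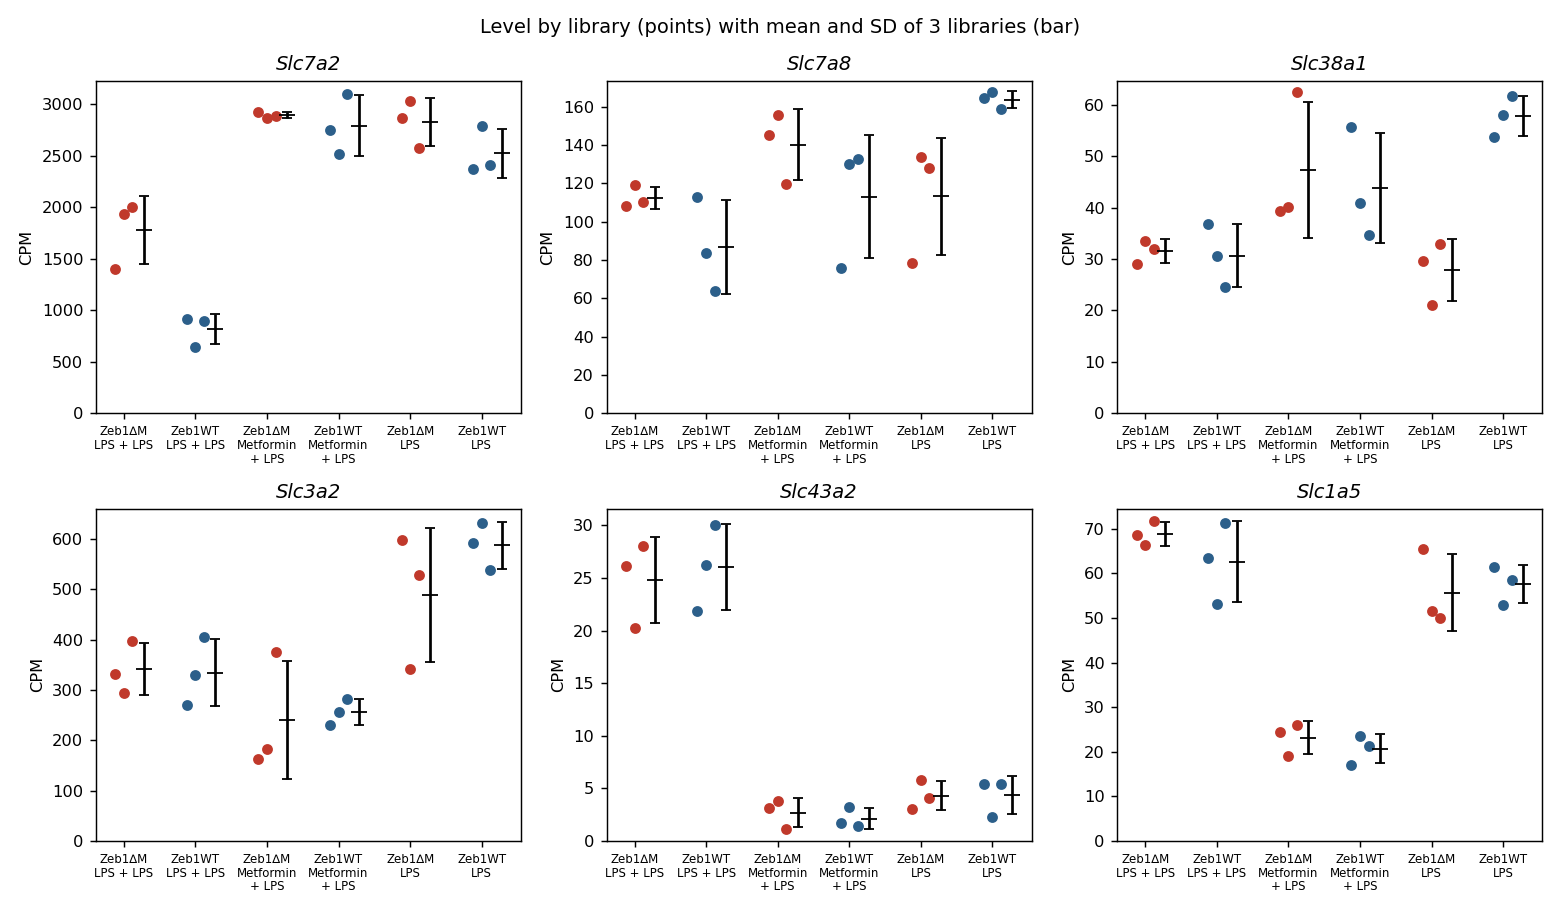
CPM of 6 carrier genes in each library (points, *Zeb1*∆M in red and *Zeb1*WT in blue) with the mean and SD of 3 libraries (bar). *Slc7a8* is highest in *Zeb1*WT LPS, *Slc7a2* is lowest in *Zeb1*WT LPS + LPS, *Slc43a2* is high in both LPS + LPS groups and *Slc1a5* is low in both Metformin + LPS groups.

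The heavy chain gene *Slc3a2* fell relative to LPS after Metformin + LPS in both genotypes. It had 163, 182 and 375 CPM in *Zeb1*∆M Metformin + LPS libraries, against 598, 341 and 529 CPM in *Zeb1*∆M LPS libraries. It had 230.1, 255 and 282 CPM in *Zeb1*WT Metformin + LPS libraries, against 592, 632 and 538 CPM in *Zeb1*WT LPS libraries. In *Zeb1*∆M macrophages 1 Metformin + LPS library lay above 1 LPS library, and in *Zeb1*WT macrophages the groups were apart. The differences were -1.03 ± 0.28 (adjusted p = 0.0113) in *Zeb1*∆M and -1.20 ± 0.28 (adjusted p = 0.00423) in *Zeb1*WT macrophages. The *Zeb1*∆M call was lost without LPS replicate 1 or Metformin + LPS replicate 1 or 2 (adjusted p up to 0.0727). The *Zeb1*WT call held in all 6 such fits.

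After LPS + LPS, *Slc3a2* had 332, 295 and 398 CPM in *Zeb1*∆M and 270.3, 329 and 404 CPM in *Zeb1*WT libraries. Relative to LPS the value was -0.52 ± 0.27 (adjusted p = 0.16) in *Zeb1*∆M macrophages, and it fell in *Zeb1*WT macrophages, with -0.81 ± 0.27 (adjusted p = 0.0269). The first groups overlapped and the second did not. The *Zeb1*WT call was lost in 4 of 6 fits that left out 1 library, and without replicate 1 of *Zeb1*WT LPS + LPS it was -0.68 ± 0.30 (adjusted p = 0.0932).

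Among its light chain partners, *Slc7a5*, the principal carrier of large neutral amino acids, had its called falls in *Zeb1*∆M macrophages. It had 6.64, 2.82 and 2.84 CPM after LPS + LPS and 1.47, 1.37 and 1.89 CPM after Metformin + LPS, against 12.7, 16.01 and 12.1 CPM after LPS. Both groups were below all *Zeb1*∆M LPS libraries. The differences from LPS were -1.72 ± 0.64 (adjusted p = 0.045) after LPS + LPS and -3.10 ± 0.68 (adjusted p = 0.00329) after Metformin + LPS. The Metformin + LPS call held in all 6 fits that left out 1 library, and the LPS + LPS call was lost in 5 of 6 (adjusted p up to 0.148). In *Zeb1*WT macrophages the values were 7.37, 1.07 and 1.10 CPM after LPS + LPS, 3.81, 3.05 and 2.63 CPM after Metformin + LPS and 3.41, 3.35 and 13.4 CPM after LPS. There, 1 LPS library was far above the others, and so was 1 LPS + LPS library, replicate 1. No *Zeb1*WT difference of *Slc7a5* passed among the 13443 genes. Without that LPS + LPS library its fall after LPS + LPS did pass. With no filter on low counts, over 27409 genes and all libraries, it was called lower in *Zeb1*WT macrophages after both treatments, and its interaction with Metformin + LPS was called. With the filter neither interaction of *Slc7a5* was called (adjusted p = 0.946 for LPS + LPS and 0.339 for Metformin + LPS).

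*Slc7a6*, a light chain that exchanges cationic for neutral amino acids, moved in opposite directions under the treatments in *Zeb1*∆M macrophages. In *Zeb1*∆M libraries it had 16.8, 16.8 and 15.9 CPM after LPS + LPS and 4.31, 3.48 and 5.38 CPM after Metformin + LPS, against 10.1, 7.90 and 11.8 CPM after LPS. In *Zeb1*WT libraries it had 18.4, 18.6 and 24.1 CPM after LPS + LPS and 6.47, 6.20 and 3.64 CPM after Metformin + LPS, against 14.9, 13.1 and 12.1 CPM after LPS. In both genotypes the LPS + LPS libraries were all above and the Metformin + LPS libraries all below those of LPS. It fell after Metformin + LPS in both genotypes, with -1.18 ± 0.25 (adjusted p = 0.00234) in *Zeb1*∆M and -1.30 ± 0.25 (adjusted p = 0.00102) in *Zeb1*WT macrophages, in every fit that left out 1 library. After LPS + LPS it rose in *Zeb1*∆M macrophages (0.73 ± 0.24, adjusted p = 0.0254, lost in 5 of 6 such fits), and the *Zeb1*WT value was 0.60 ± 0.24 (adjusted p = 0.0542). DESeq2 called the *Zeb1*WT rise too (adjusted p = 0.0297). With no filter on low counts the *Zeb1*∆M rise had an adjusted p of 0.0505. *Slc7a6os* itself was called in none of the 7 comparisons fitted over all groups. It was lower after LPS + LPS in *Zeb1*∆M macrophages with only the groups compared, and in *Zeb1*WT macrophages without replicate 1.

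*Slc7a7*, the related light chain that exports arginine and lysine, rose after Metformin + LPS in *Zeb1*∆M macrophages. It had 152, 125 and 129.8 CPM in Metformin + LPS libraries, against 90.00, 91.9 and 98.1 CPM in LPS libraries, with no overlap. The difference was 0.54 ± 0.15 (adjusted p = 0.0163), lost without LPS replicate 1, without Metformin + LPS replicate 1 and with no filter on low counts (adjusted p = 0.092 for *Slc7a7* without the filter). In *Zeb1*WT macrophages it had 110.2, 137 and 94.6 CPM after Metformin + LPS, against 79.96, 93.6 and 81.6 CPM after LPS, also without overlap, and 0.42 ± 0.15 (adjusted p = 0.0525). *Slc7a11*, the cystine and glutamate exchanger, was called in no comparison among the 13443 genes and ranged from 52.7 to 194 CPM over the libraries. With no filter it was called higher after LPS + LPS in *Zeb1*∆M macrophages and lower after Metformin + LPS in *Zeb1*WT macrophages, the second also with only the groups compared.

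For the cationic carriers, *Slc7a2* fell after LPS + LPS relative to LPS in both genotypes. The values above give a fall of 0.67 ± 0.20 on the log2 scale in *Zeb1*∆M macrophages (adjusted p = 0.0136) and of 1.62 ± 0.20 in *Zeb1*WT macrophages (adjusted p = 4.69e-06). The *Zeb1*WT fall held in every fit that left out 1 library, and the *Zeb1*∆M fall was lost without LPS + LPS replicate 1 (adjusted p = 0.0868) and with no filter on low counts (adjusted p = 0.0909). In both genotypes no LPS + LPS library reached the LPS range. The interaction was 0.96 ± 0.28 (adjusted p = 0.33) by edgeR and was called by DESeq2 (adjusted p = 0.0183). After Metformin + LPS, *Slc7a2* did not differ detectably from LPS, with 0.04 ± 0.19 (adjusted p = 0.919) in *Zeb1*∆M macrophages (95% interval -0.37 to 0.44) and 0.15 ± 0.19 (adjusted p = 0.629) in *Zeb1*WT macrophages (-0.26 to 0.55).

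*Slc7a1*, the widely expressed cationic carrier, had 4.80, 7.96 and 5.82 CPM in *Zeb1*∆M LPS + LPS libraries, against 7.73, 10.2 and 10.96 CPM in *Zeb1*∆M LPS libraries, which overlapped (-0.64 ± 0.27, adjusted p = 0.0757). It had 8.53, 5.62 and 4.48 CPM in *Zeb1*WT LPS + LPS libraries, against 9.37, 9.58 and 11.3 CPM in *Zeb1*WT LPS libraries. These groups did not overlap, and the fall of 0.70 ± 0.27 on the log2 scale (adjusted p = 0.0474) was lost in 5 of 6 fits that left out 1 library. The fall was also lost with no filter on low counts (adjusted p = 0.159), with only the groups compared (adjusted p = 0.106) and with a replicate block (adjusted p = 0.0537). After Metformin + LPS *Slc7a1* had 17.4, 16.6 and 13.1 CPM in *Zeb1*∆M libraries, all above LPS. The *Zeb1*WT libraries had 9.89, 13.3 and 9.60 CPM and overlapped LPS. Neither was called by edgeR with TMM factors over all 18 libraries. The *Zeb1*∆M rise was called by DESeq2 (adjusted p = 0.023), with median-of-ratios size factors (adjusted p = 0.0425) and with only the groups compared (adjusted p = 0.047), but not with no filter or a replicate block.

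Of 8 genes listed for arginine and polyamine metabolism, 3 rose and 1 fell after LPS + LPS in each genotype. Over all genes, 32.7% in *Zeb1*∆M and 36.6% in *Zeb1*WT macrophages were called there in either direction. The median of the list was -0.01 in *Zeb1*∆M and 0.08 in *Zeb1*WT macrophages, against 0.01 and 0.08 over all genes. *Arg1*, which encodes arginase, rose by a log2 fold change of 7.36 ± 0.47 (adjusted p = 4.60e-09) in *Zeb1*∆M and 5.91 ± 0.44 (adjusted p = 1.38e-08) in *Zeb1*WT macrophages. *Ass1* and *Asl*, which rebuild arginine from citrulline, also rose in both genotypes, and the mitochondrial arginase gene *Arg2* fell in both. Between genotypes *Ass1* was lower in *Zeb1*∆M macrophages after LPS (-1.23 ± 0.25, adjusted p = 0.0164) and after Metformin + LPS (-1.50 ± 0.24, adjusted p = 0.00192).

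*Slc1a5*, the sodium-dependent exchanger of glutamine and small neutral amino acids, showed its called changes only after Metformin + LPS. It had 24.4, 18.97 and 26.1 CPM in *Zeb1*∆M Metformin + LPS libraries, against 65.5, 51.5 and 49.9 CPM in *Zeb1*∆M LPS libraries. It had 17.1, 23.6 and 21.4 CPM in *Zeb1*WT Metformin + LPS libraries, against 61.4, 52.9 and 58.6 CPM in *Zeb1*WT LPS libraries. The groups were far apart in both genotypes. The differences were -1.26 ± 0.18 (adjusted p = 1.23e-04) in *Zeb1*∆M and -1.47 ± 0.18 (adjusted p = 3.00e-05) in *Zeb1*WT macrophages, and both held in all fits that left out 1 library. After LPS + LPS its libraries had 68.5, 66.3 and 71.8 CPM in *Zeb1*∆M and 63.4, 53.2 and 71.2 CPM in *Zeb1*WT macrophages.

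*Slc1a4*, a related neutral carrier, had 0.302, 0.421 and 1.23 CPM in *Zeb1*∆M LPS + LPS libraries, against 1.19, 0.765 and 0.968 CPM in *Zeb1*∆M LPS libraries, and was not called. It had 0.0729, 0.115 and 0.314 CPM in *Zeb1*WT LPS + LPS libraries, against 7.08, 0.203 and 7.03 CPM in *Zeb1*WT LPS libraries. The *Zeb1*WT groups overlapped, with replicate 2 of LPS far below the other LPS libraries. The fitted fall there was 4.76 ± 1.33 on the log2 scale (adjusted p = 0.009), kept in every fit that left out 1 library. After Metformin + LPS *Slc1a4* had 0, 0.878 and 0.310 CPM in *Zeb1*WT libraries, which also overlapped LPS. That fall was not called over all 18 libraries with the filter. It was called by DESeq2 (adjusted p = 0.0185), with no filter (adjusted p = 1.93e-04) and with only the groups compared (adjusted p = 0.0435).

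Among the sodium-coupled *Slc38* carriers, *Slc38a2* fell after Metformin + LPS in both genotypes. This carrier concentrates neutral amino acids and is known to rise on amino acid shortage. It had 20.3, 22.5 and 24.4 CPM in *Zeb1*∆M Metformin + LPS libraries, against 33.5, 65.9 and 54.9 CPM in *Zeb1*∆M LPS libraries. It had 22.7, 33.5 and 21.05 CPM in *Zeb1*WT Metformin + LPS libraries, against 64.7, 47.9 and 56.2 CPM in *Zeb1*WT LPS libraries. Neither genotype had overlapping groups. The differences were -1.20 ± 0.27 (adjusted p = 0.00393) in *Zeb1*∆M and -1.12 ± 0.27 (adjusted p = 0.0058) in *Zeb1*WT macrophages, kept in every fit that left out 1 library. After LPS + LPS the values were -0.63 ± 0.27 (adjusted p = 0.0824) in *Zeb1*∆M and -0.60 ± 0.27 (adjusted p = 0.0868) in *Zeb1*WT macrophages.

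*Slc38a7*, whose human product exports glutamine from lysosomes, had 10.6, 12.3 and 20.9 CPM in *Zeb1*∆M Metformin + LPS libraries, against 28.8, 22.1 and 28.03 CPM in *Zeb1*∆M LPS libraries. It had 12.1, 13.7 and 14.01 CPM in *Zeb1*WT Metformin + LPS libraries, against 23.7, 32.2 and 32.4 CPM in *Zeb1*WT LPS libraries. All Metformin + LPS libraries were below those of LPS. It fell in both genotypes, with -0.85 ± 0.22 (adjusted p = 0.0089) in *Zeb1*∆M (lost without Metformin + LPS replicate 1 or 2) and -1.15 ± 0.22 (adjusted p = 0.00114) in *Zeb1*WT macrophages. After LPS + LPS *Slc38a7* had 36.2, 33.8 and 39.1 CPM in *Zeb1*∆M and 40.4, 35.3 and 37.1 CPM in *Zeb1*WT libraries. In both genotypes these were all above LPS but not called over all groups. With only the groups compared the *Zeb1*∆M rise was called (0.50 ± 0.17, adjusted p = 0.0388).

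For *Slc38a1* the treatment values differed in sign between genotypes, a difference that edgeR did not call with the filter on low counts. Relative to LPS the value after LPS + LPS was 0.18 ± 0.23 (adjusted p = 0.586) in *Zeb1*∆M macrophages, and it fell in *Zeb1*WT macrophages (-0.91 ± 0.23, adjusted p = 0.00382). After Metformin + LPS it rose in *Zeb1*∆M macrophages (0.76 ± 0.23, adjusted p = 0.0192, lost without LPS replicate 2 or Metformin + LPS replicate 3), and the *Zeb1*WT value was -0.40 ± 0.22 (adjusted p = 0.203). The interactions were 1.09 ± 0.32 (adjusted p = 0.33) for LPS + LPS and 1.17 ± 0.32 (adjusted p = 0.14) for Metformin + LPS. The Metformin one was called by DESeq2 (adjusted p = 0.0362) and by edgeR with no filter (1.19 ± 0.34, adjusted p = 0.0266). All 4 treatment differences use the LPS libraries, in which *Slc38a1* differed between genotypes.

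*Slc38a10*, a widely expressed family member, rose after LPS + LPS in both genotypes. It had 86.8, 97.7 and 91.4 CPM in *Zeb1*∆M LPS + LPS libraries, against 45.9, 52.1 and 50.2 CPM in *Zeb1*∆M LPS libraries. It had 70.4, 68.5 and 53.6 CPM in *Zeb1*WT LPS + LPS libraries, against 34.6, 36.4 and 39.8 CPM in *Zeb1*WT LPS libraries. The groups did not overlap. The rises were 0.90 ± 0.23 (adjusted p = 0.00601) in *Zeb1*∆M and 0.80 ± 0.23 (adjusted p = 0.0111) in *Zeb1*WT macrophages, kept in every fit that left out 1 library. *Slc38a4*, another family member, had no count in the *Zeb1*WT LPS + LPS libraries and 126 counts in those of *Zeb1*WT LPS (1.70, 1.06 and 4.06 CPM). That makes it at least 61.3-fold lower with a floor of 3 counts over the group, and at least 40.0-fold lower without LPS replicate 3. After Metformin + LPS its *Zeb1*WT libraries had 0, 0.139 and 0.232 CPM. That fall of 4.07 on the log2 scale (adjusted p = 0.0173) was lost in 3 of 6 fits that left out 1 library. In *Zeb1*∆M macrophages it had 0.0335, 0.253 and 0.379 CPM after LPS + LPS, against 0.520, 0.867 and 1.22 CPM after LPS. These did not overlap and were not called.

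The proton-coupled carrier *Slc36a4*, with high affinity for proline and tryptophan, also rose after LPS + LPS in both genotypes. It had 19.1, 24.2 and 22.9 CPM in *Zeb1*∆M LPS + LPS libraries, against 8.17, 11.8 and 6.57 CPM in *Zeb1*∆M LPS libraries. It had 21.2, 13.4 and 21.2 CPM in *Zeb1*WT LPS + LPS libraries, against 9.32, 7.05 and 7.76 CPM in *Zeb1*WT LPS libraries. No library of LPS + LPS was as low as any of LPS. The rises of 1.32 ± 0.33 (adjusted p = 0.00477) in *Zeb1*∆M and 1.21 ± 0.33 (adjusted p = 0.00726) in *Zeb1*WT macrophages held in every fit that left out 1 library. *Slc36a1*, which exports small amino acids from lysosomes, had 3.56, 3.03 and 3.22 CPM in *Zeb1*∆M LPS + LPS libraries, against 1.04, 1.12 and 2.24 CPM in *Zeb1*∆M LPS libraries, with no overlap but no call (1.14 ± 0.57, adjusted p = 0.138). With only the groups compared *Slc36a1* was called higher there (adjusted p = 0.0356). It had 3.10, 2.98 and 0.941 CPM in *Zeb1*WT LPS + LPS libraries, against 0.672, 0.507 and 1.21 CPM in *Zeb1*WT LPS libraries, and these overlapped. The *Zeb1*WT rise of 1.56 ± 0.59 (adjusted p = 0.0468) was lost in 4 of 6 such fits, and without replicate 1 of *Zeb1*WT LPS + LPS it was 1.30 ± 0.65 (adjusted p = 0.137). It was also lost with no filter on low counts (adjusted p = 0.0634) and with only the groups compared (adjusted p = 0.097).

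Of the members above 3 CPM, *Slc43a2* had the greatest rise after LPS + LPS in both genotypes. It encodes a facilitative carrier of branched-chain amino acids, phenylalanine and methionine. It had 26.1, 20.2 and 28.1 CPM in *Zeb1*∆M LPS + LPS libraries, against 3.05, 5.76 and 4.13 CPM in *Zeb1*∆M LPS libraries. It had 21.9, 26.2 and 30.04 CPM in *Zeb1*WT LPS + LPS libraries, against 5.47, 2.33 and 5.45 CPM in *Zeb1*WT LPS libraries. Every LPS + LPS library was several times above every LPS library. The rises were 2.51 ± 0.41 (adjusted p = 1.17e-04) in *Zeb1*∆M and 2.56 ± 0.41 (adjusted p = 7.83e-05) in *Zeb1*WT macrophages, kept in every fit that left out 1 library. Between genotypes it differed by -0.07 ± 0.38 (adjusted p = 0.979) after LPS + LPS. After Metformin + LPS it had 3.14, 3.85 and 1.13 CPM in *Zeb1*∆M and 1.71, 3.24 and 1.47 CPM in *Zeb1*WT libraries, and was not called against LPS among the 13443 genes. With no filter it was called lower in *Zeb1*WT macrophages.

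*Slc43a3*, whose human product carries purine nucleobases, had 0.355, 1.00 and 2.08 CPM in *Zeb1*∆M Metformin + LPS libraries, against 2.30, 6.52 and 3.06 CPM in *Zeb1*∆M LPS libraries. The groups did not overlap, and the fall of 1.79 ± 0.60 on the log2 scale (adjusted p = 0.0351) was lost in 4 of 6 fits that left out 1 library and with only the groups compared (adjusted p = 0.0644 for *Slc43a3*). In *Zeb1*WT macrophages it had 1.52, 3.88 and 0.774 CPM after Metformin + LPS, against 4.44, 4.16 and 9.76 CPM after LPS (-1.52 ± 0.58, adjusted p = 0.0632). These groups did not overlap either. The *Zeb1*WT fall was called by DESeq2 (adjusted p = 0.0328) and by edgeR with no filter on low counts (adjusted p = 0.00629).

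Among the sodium and chloride coupled *Slc6* carriers, the taurine carrier *Slc6a6* was the most highly expressed per kilobase. It had 174, 191 and 176 CPM in *Zeb1*∆M LPS + LPS libraries, against 189, 263 and 215 CPM in *Zeb1*∆M LPS libraries, which overlapped (-0.30 ± 0.20, adjusted p = 0.273). It had 219, 119.9 and 165 CPM in *Zeb1*WT LPS + LPS libraries, against 245, 308 and 315 CPM in *Zeb1*WT LPS libraries. Here the LPS + LPS libraries were all lower, and the fall of 0.78 ± 0.20 on the log2 scale (adjusted p = 0.00528) held in every fit that left out 1 library. The interaction was not called (0.48 ± 0.29, adjusted p = 0.825). Metformin + LPS gave 320.1, 309 and 292 CPM in *Zeb1*∆M and 295, 326 and 396 CPM in *Zeb1*WT libraries, not called against LPS by edgeR. The *Zeb1*∆M libraries were all above those of LPS, and DESeq2 called that rise (0.51 ± 0.21, adjusted p = 0.0421).

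*Slc6a20b* had 22.5, 21.7 and 27.1 CPM in *Zeb1*∆M Metformin + LPS libraries, against 14.05, 27.02 and 12.03 CPM in *Zeb1*∆M LPS libraries, which overlapped (0.42 ± 0.24, adjusted p = 0.212). It had 23.2, 22.8 and 24.5 CPM in *Zeb1*WT Metformin + LPS libraries, against 17.03, 13.3 and 12.4 CPM in *Zeb1*WT LPS libraries, without overlap. The *Zeb1*WT rise of 0.72 ± 0.25 (adjusted p = 0.0388) was lost in 5 of 6 fits that left out 1 library, with no filter on low counts (adjusted p = 0.059) and with a replicate block (adjusted p = 0.0525).

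*Slc6a12*, which carries betaine and GABA, was scarce but rose after LPS + LPS in both genotypes. It had 1.21, 2.27 and 4.40 CPM in *Zeb1*∆M LPS + LPS libraries, against 0, 0 and 0.204 CPM in *Zeb1*∆M LPS libraries, a difference of 5.05 ± 1.25 (adjusted p = 0.00652). It had 1.24, 2.60 and 2.16 CPM in *Zeb1*WT LPS + LPS libraries, or 171 counts, and no count in *Zeb1*WT LPS libraries, at least 39.0-fold higher with a floor of 3 counts over the group and at least 33.9-fold higher without LPS + LPS replicate 2. Both calls held in every fit that left out 1 library.

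The glycine carrier gene *Slc6a9* had no count in *Zeb1*WT LPS + LPS libraries and 0.583, 0 and 1.27 CPM in *Zeb1*WT LPS libraries. One LPS library was thus at 0 too, and the call of a fall (adjusted p = 0.0211) was lost in 3 of 6 fits that left out 1 library, namely without LPS replicate 3 or LPS + LPS replicate 2 or 3. The serotonin carrier gene *Slc6a4* had 0.0335, 0 and 0 CPM after LPS + LPS and 0, 0.0527 and 0 CPM after Metformin + LPS in *Zeb1*∆M libraries, against 0, 3.57 and 1.32 CPM after LPS. It was called lower after both treatments, but 1 LPS library was at 0. The LPS + LPS call of *Slc6a4* was lost in 4 of 6 such fits. Its Metformin + LPS call was lost in 5 of 6 and with a replicate block (adjusted p = 0.0534).

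**Figure D4:**
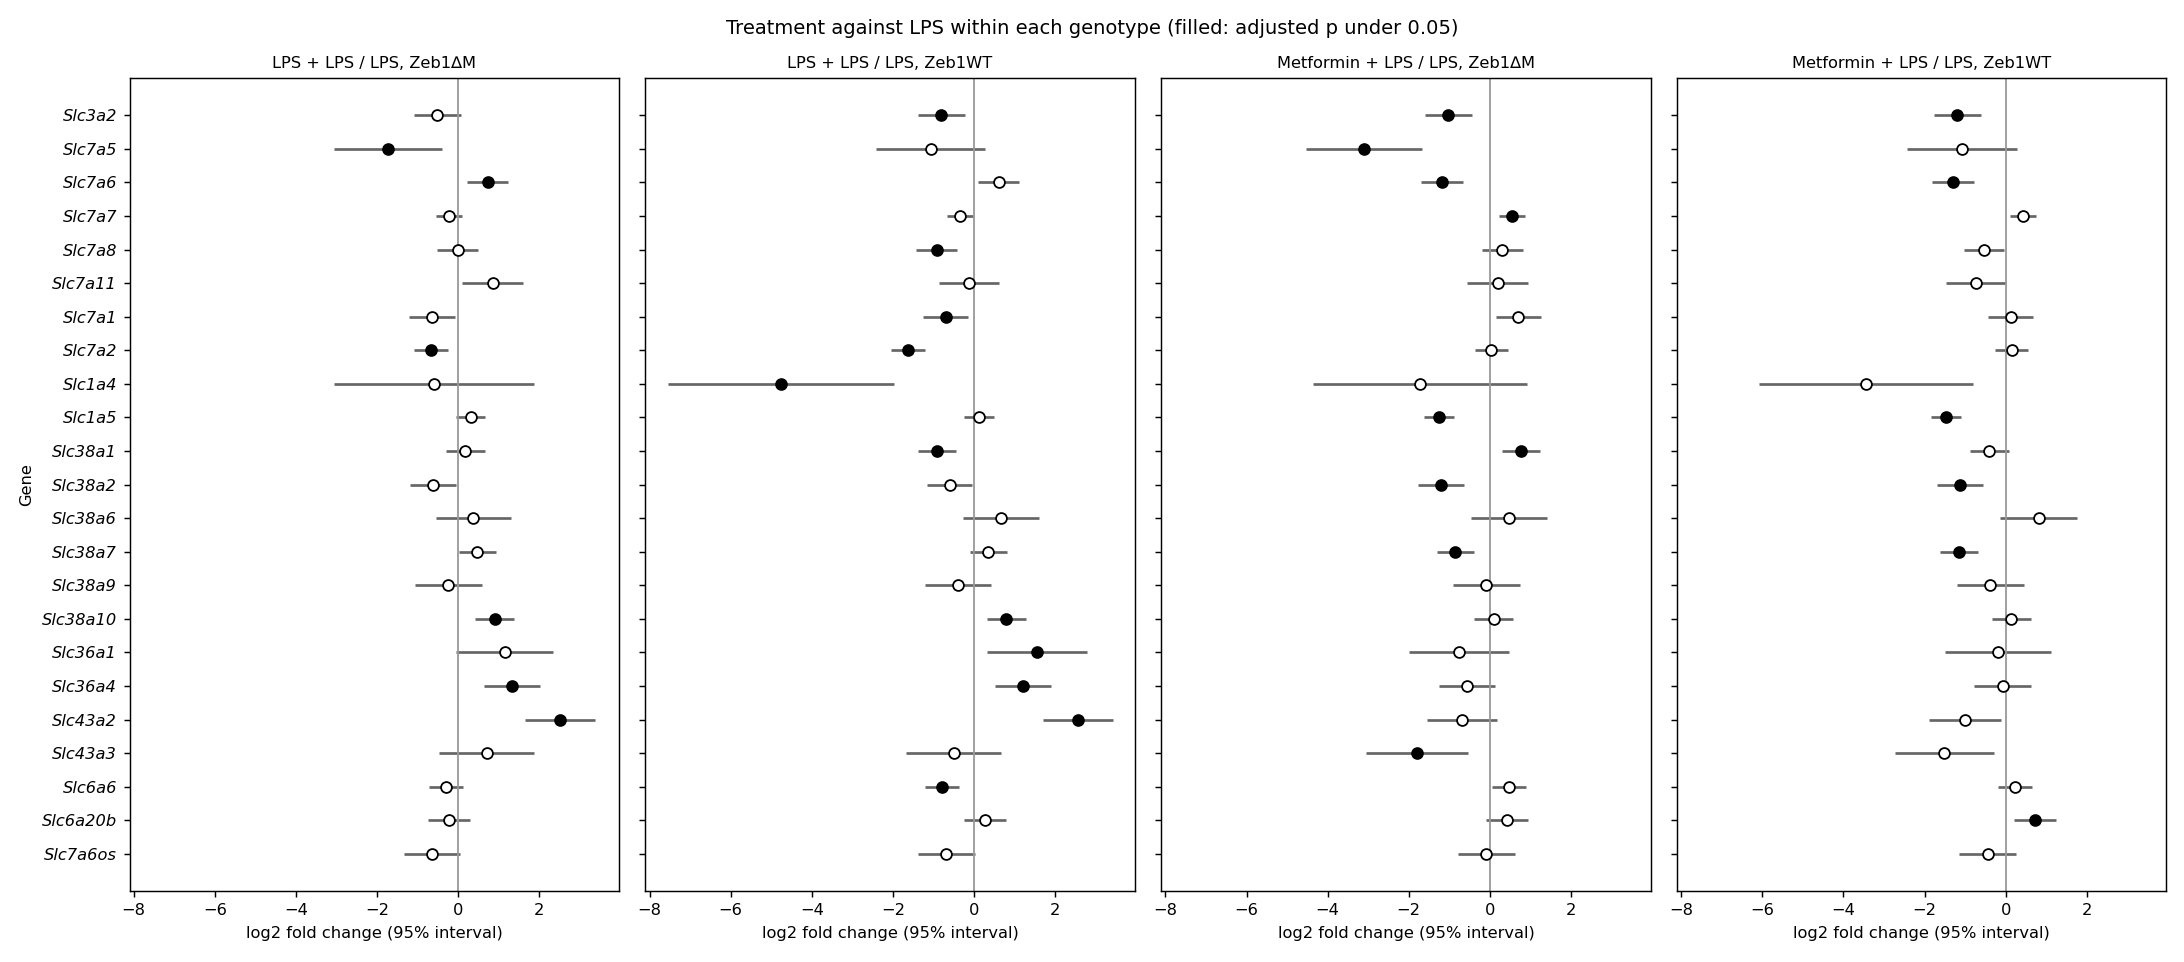
Log2 fold change of LPS + LPS and of Metformin + LPS over LPS with its 95% interval in each genotype, for the 23 members that reached 3 CPM in a group, filled where the adjusted p was under 0.05. *Slc43a2*, *Slc36a4* and *Slc38a10* are filled to the right in both genotypes after LPS + LPS, and *Slc1a5*, *Slc38a2*, *Slc38a7*, *Slc3a2* and *Slc7a6* are filled to the left in both after Metformin + LPS.

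Counted over the 31 members, 5 were higher and 3 lower after LPS + LPS than after LPS in *Zeb1*∆M macrophages, where 32.7% of all genes were called, 15.8% higher and 16.9% lower. In *Zeb1*WT macrophages 5 were higher and 9 lower, where 36.6% of all genes were called, 18.6% higher and 18% lower. Groups did not overlap for 15 members in each genotype, against 51.7% of all genes in *Zeb1*∆M and 47% in *Zeb1*WT macrophages. The members' median log2 fold change was -0.01 in *Zeb1*∆M and -0.41 in *Zeb1*WT macrophages, against 0.01 and 0.08 over all genes tested. Without replicate 1 of *Zeb1*WT LPS + LPS the *Zeb1*WT counts were 4 higher and 10 lower, with 33.4% of all genes called. No member had an interaction of genotype with LPS + LPS called by edgeR with the filter on low counts, where 0% of all genes were called. An unadjusted p under 0.05 was reached by 7 of the 31 members and by 939 of the 13443 genes. Without the same replicate no member and 0.0645% of all genes were called. DESeq2 called 1 member, *Slc7a2*, and 0.55% of all genes.

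Markers of other cell states moved with LPS + LPS. Of the 11 markers of large peritoneal macrophages, 9 fell in *Zeb1*∆M and 10 in *Zeb1*WT macrophages, with none at 0. Their summed level after LPS was 16158 to 17293 CPM in *Zeb1*∆M and 12279 to 16077 CPM in *Zeb1*WT libraries. Of the 14 neutrophil markers, 8 rose and 1 fell in *Zeb1*∆M and 7 rose in *Zeb1*WT macrophages. Of the 9 B cell markers 1 fell in *Zeb1*∆M and 7 in *Zeb1*WT macrophages. The neutrophil sum after LPS + LPS was 920.4 to 1628 CPM in *Zeb1*∆M and 1083 to 4375 CPM in *Zeb1*WT libraries, with none at 0. Their part in the members' changes was not tested.

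After Metformin + LPS, 2 members were higher and 8 lower than after LPS in *Zeb1*∆M macrophages, where 26.2% of all genes were called, 12.6% higher and 13.6% lower. In *Zeb1*WT macrophages 1 member was higher and 6 were lower, where 25.2% of all genes were called, 13% higher and 12.3% lower. DESeq2 called 13 members there and 29.6% of all genes. Groups did not overlap for 13 members in each genotype, against 42.3% of all genes in *Zeb1*∆M and 41% in *Zeb1*WT macrophages. The median log2 fold change of the members was -0.68 in *Zeb1*∆M and -0.40 in *Zeb1*WT macrophages, against -0.04 and -0.03 over all genes. No member had a called interaction by edgeR with the filter on low counts, against 0.156% of all genes. An unadjusted p under 0.05 was reached by 5 of the 31 members and by 1832 of the 13443 genes. DESeq2 called 1 member, *Slc38a1*, and 2.23% of all genes. Both treatments are set against the same LPS libraries. Markers of other cells moved here too. Of 6 general macrophage markers 4 rose and 1 fell in *Zeb1*∆M and 5 rose in *Zeb1*WT macrophages, with medians of 0.88 and 1.03 and none at 0. Their summed level was 17941 to 24952 CPM in *Zeb1*∆M and 43008 to 102721 CPM in *Zeb1*WT Metformin + LPS libraries, against 26580 to 41995 CPM in *Zeb1*∆M and 43719 to 56970.1 CPM in *Zeb1*WT LPS libraries. The 6 include *Lyz2*, the lysozyme gene that drives Cre in *Zeb1*∆M mice, so these sums are no measure of macrophage content between genotypes. After Metformin + LPS *Adgre1* averaged 2896 CPM in *Zeb1*∆M and 3718 CPM in *Zeb1*WT macrophages. In the same order *Itgam* averaged 2109 and 1639 CPM, and *Csf1r* 1208 and 1365 CPM. Of 11 markers of large peritoneal macrophages 4 rose and 1 fell in *Zeb1*∆M and 2 rose in *Zeb1*WT macrophages. Of the 9 markers of monocytes and small peritoneal macrophages 2 rose and 2 fell in *Zeb1*∆M and 5 rose in *Zeb1*WT macrophages. Of 5 dendritic cell markers tested 2 fell in *Zeb1*∆M and 3 in *Zeb1*WT macrophages, and of 4 eosinophil markers 3 fell in *Zeb1*∆M and 0 in *Zeb1*WT macrophages. Of the neutrophil markers 9 of 14 fell in *Zeb1*∆M and 7 of 14 in *Zeb1*WT macrophages, with *Ngp* and *Ly6g* at 0 in *Zeb1*∆M Metformin + LPS. Of the 9 B cell markers 5 fell in *Zeb1*∆M and 6 in *Zeb1*WT macrophages. Their part in the members' changes was not tested.

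Genes that respond to amino acid shortage through ATF4, a list that shares no gene with the carriers, gave the following counts. Of 19 measured, 2 rose and 8 fell after LPS + LPS in *Zeb1*∆M macrophages, and 2 rose and 10 fell in *Zeb1*WT macrophages. Over all genes the called shares in *Zeb1*∆M macrophages were 15.8% up and 16.9% down, and those in *Zeb1*WT macrophages 18.6% up and 18% down. On the log2 scale *Atf4* itself fell by 1.76 in *Zeb1*∆M and fell by 1.31 in *Zeb1*WT macrophages. *Chac1*, which degrades glutathione, fell by 5.36 in *Zeb1*∆M and fell by 4.73 in *Zeb1*WT macrophages. After Metformin + LPS, 11 of 19 fell in *Zeb1*∆M and 9 of 19 in *Zeb1*WT macrophages, and none rose, against 12.6% higher and 13.6% lower over all genes in *Zeb1*∆M and 13% higher and 12.3% lower in *Zeb1*WT macrophages. *Asns*, asparagine synthetase, fell by 2.53 in *Zeb1*∆M and by 3.16 in *Zeb1*WT macrophages. *Phgdh*, which opens serine synthesis, fell by 1.95 in *Zeb1*∆M and by 3.14 in *Zeb1*WT macrophages. The medians of the list were -1.09 in *Zeb1*∆M and -1.18 in *Zeb1*WT macrophages after LPS + LPS, and -1.08 and -0.77 after Metformin + LPS, beside the medians of all genes given above.

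A list of mTORC1 genes took in its subunits, its amino acid sensors, other regulators and substrates. Of the 37 measured, 11 rose and 3 fell after LPS + LPS in *Zeb1*∆M, and 10 rose and 3 fell in *Zeb1*WT macrophages. In either direction that is 14 and 13 of 37, where 32.7% of all genes in *Zeb1*∆M and 36.6% in *Zeb1*WT macrophages were called. *Eif4ebp1*, a translation repressor that mTORC1 phosphorylates, rose by 1.98 ± 0.30 (adjusted p = 4.97e-05) in *Zeb1*∆M and by 2.45 ± 0.30 (adjusted p = 4.62e-06) in *Zeb1*WT macrophages. After Metformin + LPS it fell by 2.00 in *Zeb1*∆M and by 1.57 in *Zeb1*WT macrophages, when 5 of 37 rose and 9 fell in *Zeb1*∆M and 5 rose and 8 fell in *Zeb1*WT macrophages. Of all genes 26.2% in *Zeb1*∆M and 25.2% in *Zeb1*WT macrophages were called after Metformin + LPS. Between genotypes 1 of the 37 was called, *Nprl3*, a repressor of mTORC1, after Metformin + LPS (0.88 ± 0.25, adjusted p = 0.0472).

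Of 19 enzymes of glutamine, glutamate and branched-chain amino acids, 5 rose and 2 fell after LPS + LPS in *Zeb1*∆M, and 6 rose and 3 fell in *Zeb1*WT macrophages. For this list and the lists that follow, 32.7% of all genes in *Zeb1*∆M and 36.6% in *Zeb1*WT macrophages were called after LPS + LPS, and 26.2% and 25.2% after Metformin + LPS. *Glud1*, glutamate dehydrogenase, rose after both treatments in both genotypes, by 0.85 ± 0.19 (adjusted p = 0.0024) after LPS + LPS in *Zeb1*∆M macrophages and by 1.02 ± 0.19 (adjusted p = 4.45e-04) in *Zeb1*WT macrophages. Of 17 carriers of amino acids outside the families above, 5 rose and 2 fell after LPS + LPS in *Zeb1*∆M and 5 rose and 3 fell in *Zeb1*WT macrophages. *Slc25a22*, a mitochondrial glutamate carrier, fell by 3.00 in *Zeb1*∆M and by 3.27 in *Zeb1*WT macrophages. After Metformin + LPS, 3 of the 17 rose and 5 fell in *Zeb1*∆M, and 3 rose and 6 fell in *Zeb1*WT macrophages. No enzyme of the 19 and no carrier of the 17 was called between genotypes. Of 15 NRF2 targets, which include genes of glutathione synthesis that use imported cystine, 4 rose and 2 fell after LPS + LPS in *Zeb1*∆M and 3 rose and 3 fell in *Zeb1*WT macrophages. After Metformin + LPS, 1 of them rose and 3 fell in *Zeb1*∆M, and 2 rose and 3 fell in *Zeb1*WT macrophages. Between genotypes 2 were lower in *Zeb1*∆M macrophages after Metformin + LPS.

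Promoter windows were found for 23 of the 31 tested members, 40 windows in all, and were searched on both strands for 3 motifs. TGATGNAA, a composite site of the amino acid response, was in 4 windows (10.0%), against 3.97% of all 32851 windows. CACCTG, the E-box letters that ZEB1 is known to bind, was in 9 (22.5%), against 20.2%. TGACNNNGC, the core of the antioxidant response element, was in 8 (20%), against 12.4%. Windows of the same gene can overlap and hold the same site. Members with a match numbered 3 for TGATGNAA, 7 for CACCTG and 6 for TGACNNNGC, of the 23. No match in a window overlapped another motif in the windows printed here. A match is a description of letters, not of binding.

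Shown here are the windows of members that moved together, since 5 members fell in both genotypes after Metformin + LPS and the 4 of them with a window are given (*Slc1a5* had none), and of *Slc43a2*, which rose in both after LPS + LPS. They cover 250 bases before to 50 after the RefSeq transcript start on GRCm38.p6 and are written on the strand of the gene. They lie at chr19:8713848-8714147 (minus strand) for *Slc3a2*, chr15:96699679-96699978 (minus strand) for *Slc38a2*, chr8:95853442-95853741 (minus strand) for *Slc38a7*, chr8:106168604-106168903 (plus strand) for *Slc7a6* and chr11:75531444-75531743 (plus strand) for *Slc43a2*. Capitals mark the motifs found. In *Slc38a2* these are CAGGTG, the E-box on the opposite strand, 72 bases before the start, and the antioxidant element 27 bases before it. In *Slc7a6* they are CAGGTG 194 bases before the start and the antioxidant element 1 base before it. *Slc3a2*, *Slc38a7* and *Slc43a2* have none.

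Slc3a2: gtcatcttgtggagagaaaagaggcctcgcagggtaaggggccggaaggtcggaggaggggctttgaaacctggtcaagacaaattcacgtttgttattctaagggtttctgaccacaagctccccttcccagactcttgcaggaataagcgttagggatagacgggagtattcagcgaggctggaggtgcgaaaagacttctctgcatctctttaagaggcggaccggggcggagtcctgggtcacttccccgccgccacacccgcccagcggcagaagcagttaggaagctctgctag
Slc38a2: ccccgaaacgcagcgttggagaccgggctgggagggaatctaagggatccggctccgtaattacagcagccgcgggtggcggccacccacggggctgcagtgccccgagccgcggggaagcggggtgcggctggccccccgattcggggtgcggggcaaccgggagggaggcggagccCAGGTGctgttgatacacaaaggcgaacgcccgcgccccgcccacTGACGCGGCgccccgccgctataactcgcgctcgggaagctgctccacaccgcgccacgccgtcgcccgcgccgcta
Slc38a7: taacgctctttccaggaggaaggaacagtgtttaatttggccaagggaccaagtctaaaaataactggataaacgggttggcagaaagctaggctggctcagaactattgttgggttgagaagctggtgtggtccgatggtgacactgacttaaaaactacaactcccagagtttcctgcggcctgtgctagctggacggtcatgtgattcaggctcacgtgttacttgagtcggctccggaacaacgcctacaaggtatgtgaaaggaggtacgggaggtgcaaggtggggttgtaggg
Slc7a6: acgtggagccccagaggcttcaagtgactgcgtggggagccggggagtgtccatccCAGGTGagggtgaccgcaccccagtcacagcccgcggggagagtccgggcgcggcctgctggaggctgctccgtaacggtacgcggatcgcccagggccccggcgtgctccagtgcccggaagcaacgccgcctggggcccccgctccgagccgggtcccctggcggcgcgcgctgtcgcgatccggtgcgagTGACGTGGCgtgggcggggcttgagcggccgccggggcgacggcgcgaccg
Slc43a2: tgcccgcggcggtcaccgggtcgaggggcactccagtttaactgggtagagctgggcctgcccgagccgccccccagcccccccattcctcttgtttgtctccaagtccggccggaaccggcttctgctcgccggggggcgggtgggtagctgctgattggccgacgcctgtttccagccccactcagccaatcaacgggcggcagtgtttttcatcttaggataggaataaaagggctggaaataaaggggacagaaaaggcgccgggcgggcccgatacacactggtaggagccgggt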

How the data were processed

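Whole-number gene counts on GRCm38 were used as deposited by the authors, 1 column per library for 55573 genes and 18 libraries, 3 in each of 6 groups. STAR, RSEM and DESeq2 are named in the submitters' processing notes, without versions or settings. RSEM estimates counts, so the counts may have been rounded before deposit. RNA was taken with Trizol and the TruSeq Stranded mRNA kit. The columns of 18 libraries were matched by library code.

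Genes that passed filterByExpr (13443) were fitted over all 18 libraries with edgeR 4.0.16 in R 4.3.3, using TMM factors and quasi-likelihood tests. Benjamini-Hochberg adjustment was made over all tested genes in each of 9 contrasts, at 0.05. Standard errors came from the F statistic and intervals are at 95%. The fit was tested on simulated data. DESeq2 1.42.0, other size factors, no filter, the compared groups alone, a replicate block and the omission of each library were alternatives. A fit without replicate 1 of *Zeb1*WT LPS + LPS for the contrasts that do not use it was chosen after seeing the data.

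Values by library are given for members called in at least 1 contrast with at least 3 CPM as a group mean, but not always for every group. For *Slc7a8* and *Slc3a2* they are given in all libraries. Up to 4 genes of other lists, those with the smallest adjusted p in the contrast, could be named. The members and lists were chosen with earlier results of these data known. Members called below 3 CPM are given by range, bound or count. Counting error alone bears on the bounds. Promoter sequences came from RefSeq on GRCm38.p6. The study's supplementary methods were not used here.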

Additional observations from a re-analysis of the deposited data

How the results depend on the processing

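Of the 41 calls of members, 23 held in every fit that left out 1 library and 18 were lost in at least 1. Over these fits the members called between genotypes numbered 0 to 1 after LPS, 0 to 1 after LPS + LPS and 0 after Metformin + LPS. Against LPS, LPS + LPS called 5 to 8 in *Zeb1*∆M and 11 to 14 in *Zeb1*WT macrophages, and Metformin + LPS called 5 to 10 in each genotype. The interactions called 0 in all these fits. After LPS + LPS the genotype comparison called 2 members with DESeq2, 2 with no filter on low counts and 0 with only the groups compared. After Metformin + LPS it called 2 with no filter. Metformin + LPS against LPS in *Zeb1*WT macrophages called 13 with DESeq2 and 13 with no filter. The interaction with LPS + LPS called 1 with DESeq2 and 2 with no filter, and that with Metformin + LPS called 1 and 4. With no filter, 47 members and 27409 genes were tested, genes with few counts included, so those counts have another base. Of all genes, the interaction with LPS + LPS then called 159 higher and 77 lower. That with Metformin + LPS called 198 higher and 403 lower, and its 4 members are *Slc38a1*, *Slc7a5* and the scarce *Slc6a12* and *Slc6a4*. DESeq2 called 0.55% and 2.23% of all genes in the same order. The cause of these differences between settings was not tested.

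Directions turned for values that were not called. *Slc7a8* after LPS + LPS in *Zeb1*∆M macrophages was 0.0098 (log2) with DESeq2, 0.0099 with median-of-ratios size factors, 0.053 with no filter and 0.018 with only the groups compared, and -0.22 to 0.13 when 1 library was left out. Leaving out 1 library moved *Slc3a2* between genotypes over -0.10 to 0.19 after LPS + LPS and -0.58 to 0.10 after Metformin + LPS, and moved its interaction with Metformin + LPS over -0.31 to 0.38.

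The replicate numbers of the labels did not pair the samples. Of 45 same-numbered pairs, 3 correlated above 0.1, with a median of 0.0112. With a replicate block the genotype comparisons called 1, 1 and 0 members after LPS, LPS + LPS and Metformin + LPS, LPS + LPS called 9 in *Zeb1*∆M and 13 in *Zeb1*WT macrophages, Metformin + LPS called 9 and 6, and the interactions called 0 and 0. Depth limits the members below 3 CPM, where a group holds few counts.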
